A study of Rattus norvegicus with 12 samples.

Results

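Chemokine ligands are small secreted proteins, and 10 of their genes were followed here across 12 Affymetrix rat arrays: Ccl2, Ccl3, Ccl4, Ccl5 and Ccl20 of the CC family and Cxcl1, Cxcl9, Cxcl10, Cxcl11 and Cxcl13 of the CXC family. A probe set, the array's unit of measurement, was taken where the platform annotation gave it exactly 1 gene symbol and that symbol was among the 10. This gave 11 probe sets of 10 genes, out of 31042 probe sets and 14217 named genes. Cxcl9 had 2 probe sets (1373544_at and 1382454_at) and each other gene had 1. RNA came from organotypic hippocampal slice cultures of Wistar rats, made from 350 µm slices taken at postnatal day 7, kept at 33 °C and collected after 26 days in vitro. The 4 groups held 3 samples each, every sample being the pooled RNA of 24 cultures, and the design text states separate cultures from different animals for the replicates. Slices of the NT group were left untreated. Those of the IgG group received a control monoclonal antibody against wheat auxin. The 11C7 and 7B12 groups received mouse monoclonal antibodies that bind amino acids 623 to 640 and 763 to 820 of rat Nogo-A, a membrane protein known for limiting neurite growth. Each antibody was given at 3 µg/ml for 5 days from day 21 in vitro. Slice cultures are explants cut off from the blood circulation.

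Chemokines guide leukocytes by binding receptors coupled to G proteins, and they are named for the spacing of the first cysteines of the protein. In the brain, microglia, astrocytes and endothelial cells make many of them after injury or exposure to microbial products. Transcription of several is known to be driven by NF-kappaB, the factor downstream of Toll-like, interleukin-1 and TNF receptors, and that of Cxcl9, Cxcl10 and Cxcl11 by interferons through interferon-stimulated response elements (ISRE) and gamma-activated sites (GAS). Ccl2 attracts monocytes through Ccr2, Ccl3 and Ccl5 can act through Ccr1, and Ccl20 acts through Ccr6. Cxcl1 attracts neutrophils through Cxcr2, the ligands Cxcl9, Cxcl10 and Cxcl11 attract activated T cells through Cxcr3, and Cxcl13 attracts B cells through Cxcr5.

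Promoter sequences, from 250 bases before the transcription start to 50 after it, were held for 6 of the 10 genes (RefSeq, build GRCr8): Ccl20, Cxcl1, Cxcl9, Cxcl10, Cxcl11 and Cxcl13. Ccl2, Ccl3, Ccl4 and Ccl5 had no entry. The promoters of an interferon-inducible member, of the neutrophil chemokine and of the member with the largest difference are shown beside the values that follow, 5′ to 3′ on the gene's strand, with matches to the NF-kappaB consensus or the ISRE core in capitals.
Cxcl10 (chr14:15988816-15989115, + strand): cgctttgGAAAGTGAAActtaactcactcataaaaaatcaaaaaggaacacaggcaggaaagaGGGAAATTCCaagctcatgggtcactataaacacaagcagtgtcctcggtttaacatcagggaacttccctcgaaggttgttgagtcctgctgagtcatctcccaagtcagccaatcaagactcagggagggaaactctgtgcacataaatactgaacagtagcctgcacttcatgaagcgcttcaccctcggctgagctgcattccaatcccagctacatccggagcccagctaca
Cxcl1 (chr14:17479272-17479571, - strand): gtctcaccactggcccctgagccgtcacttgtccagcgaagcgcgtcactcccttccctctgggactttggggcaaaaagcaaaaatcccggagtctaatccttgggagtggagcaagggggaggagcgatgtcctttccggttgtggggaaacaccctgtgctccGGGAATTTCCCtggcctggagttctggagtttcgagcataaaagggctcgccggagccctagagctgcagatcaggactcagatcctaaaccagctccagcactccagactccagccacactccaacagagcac
Cxcl13 (chr14:13917871-13918170, - strand): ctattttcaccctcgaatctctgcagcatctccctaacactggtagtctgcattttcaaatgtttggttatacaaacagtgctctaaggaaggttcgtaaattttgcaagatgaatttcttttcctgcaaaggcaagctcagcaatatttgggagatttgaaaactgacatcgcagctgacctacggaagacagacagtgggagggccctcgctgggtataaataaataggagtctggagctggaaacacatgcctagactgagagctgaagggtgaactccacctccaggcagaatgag
Counted from the start, Cxcl10 held an ISRE core, which is GAAA repeated after any 2 bases, as GAAAGTGAAA at -243 to -234 and an NF-kappaB match, GGGAAATTCC, at -187 to -178. Cxcl1 held GGGAATTTCC at -84 to -75, and the same bases matched again on the other strand, shifted by 1 base. Cxcl11 held GGGAAATTCC at -74 to -65, the same 10 bases as Cxcl10, and Ccl20 held GGAAAACCCC at -89 to -80, a match on the other strand. Cxcl9 and Cxcl13 had neither motif in this window. GAS cores (TTCNNNGAA) occurred in Cxcl9, as TTCTCTGAA at 33 to 41 past the start, and in Cxcl11, as TTCTAGGAA at -250 to -242. The NF-kappaB consensus, searched on both strands, was thus held by 4 of the 6 promoters, against 4.18% of 33469 promoters in the table. The ISRE core was held by 1 of 6, against 3.92%, and the GAS core by 2 of 6, against 8.87%. A match describes the letters in this window and says nothing of a factor bound there. By the gene order of GRCr8, Cxcl11, Cxcl10 and Cxcl9 lie next to each other on chromosome 14, and Ccl3 and Ccl4 next to each other on chromosome 10.

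The deposited values are ratios of each probe set to a reference of its own, so they show how a gene varied among arrays and carry no level that could rank one gene above another. The defining markers of hippocampal neurons and glia could therefore not be used to check the tissue. Values below are log2 ratios with the median of the array taken off, and a change is a log2 difference between group means with its standard error (SE) from limma. Arrays with the same replicate number deviated together, which these SEs and their p-values leave out of account. Fits with the number as a block are given in the closing section. The 11 probe sets spread more than most, with a median residual SD of 1.14 (0.72 to 2.14) against 0.49 over all probe sets. In every comparison limma called 0 of 31042 probe sets at an adjusted p under 0.05. The array 11C7 1 stood apart from 11C7 2 and 11C7 3 for these genes, and results that rest on it are given with and without it.

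With 7B12, each of the 10 chemokine ligands followed here stood above the controls, the mean of NT and IgG, and none passed the test. The median difference of the 11 probe sets was 2.29 (n = 3 arrays against 6), against 0.00 over all probe sets. All 11 were above 0, as were 50.3% of all probe sets, and all 11 were above 1, as were 5.56%. An unadjusted p under 0.05 with a higher value was reached by 10 of 11, against 3.09% of all probe sets, and with a lower value by 0 of 11, against 2.12%. The members were chosen with earlier results of these data known, so their counts beside these shares are a description. The 3 arrays of 7B12 lay above all 6 control arrays in 6 of 11, against 1.99%. Adjusted p-values ran from 0.439 for Cxcl10 to 0.965 for Ccl5 (limma, Benjamini-Hochberg over 31042 probe sets), so 0 of 11 were called, against 0% of all. Since RNA came from whole slices, a change in the number of cells of a type and a change in RNA per cell cannot be told apart. All 11 probe sets exceeded every control array in 7B12 3 (20.9% of all probe sets), 10 did in 7B12 1 and 6 in 7B12 2 (14.3% of all in either array). The 7B12 3 array was the highest of the 12 in 10 of 11 (15.4% of all) and 7B12 1 in 1 of 11 (6.67%). Without 7B12 3 the median was 1.64, and 5 of 11 were higher at an unadjusted p under 0.05, against 1.65% of all probe sets (limma, 0 called). Differences without it were 2.18 for Ccl20, 1.46 for Cxcl1, 0.94 for Ccl2, 0.97 for Ccl4 and 1.74 for Cxcl9 (probe sets averaged), against 3.32, 2.27, 1.63, 1.53 and 2.60 with it. With 11C7 1 left out of the shared fit, the smallest adjusted p-values of members in 7B12 were 0.0718 for Cxcl13, 0.0944 for Cxcl11 and 0.103 for Cxcl10 (limma), and 10 probe sets, none of them a member, were called. The array left out was singled out by these same genes, and the differences in 7B12 were the same with it kept. This fit took no account of replicate numbers, and fits that do are given in the closing section.

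**Figure D1:**
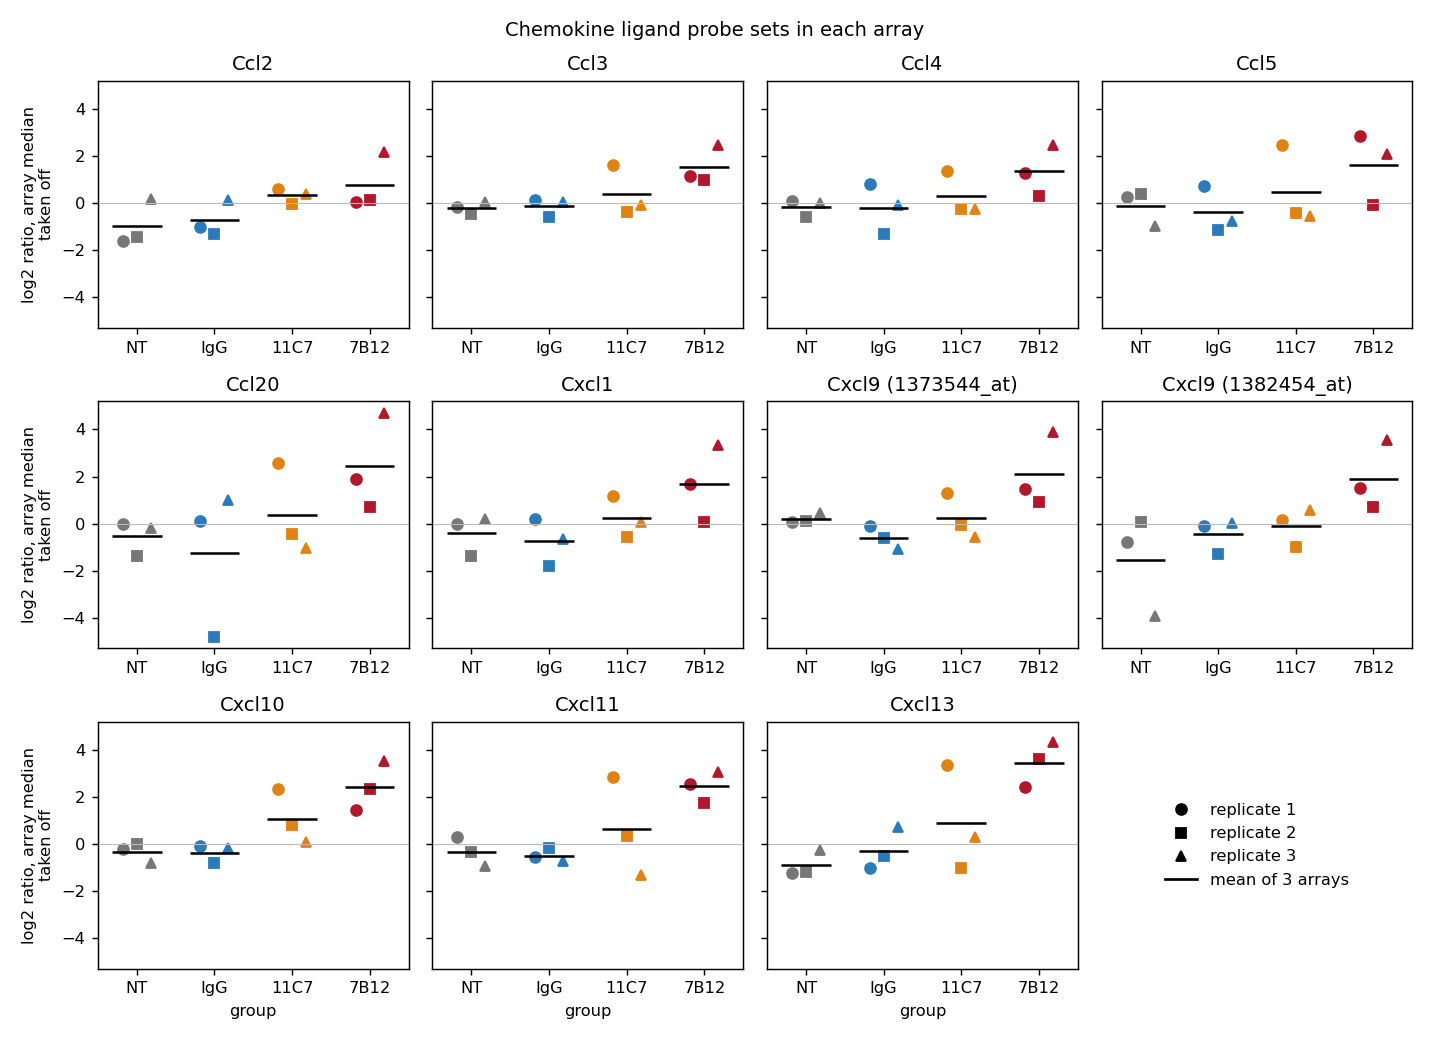
Each panel plots 1 probe set: log2 ratio with the array median taken off against group, with 1 point per array, shaped by replicate number, and a bar at the mean of 3 arrays. The 7B12 3 array is the highest of the 12 in every panel except Ccl5, and the 11C7 1 array is above the 6 control arrays in every panel.

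Among the ligands of Cxcr3, the interferon-inducible gene Cxcl10 stood at -0.23, 0.02 and -0.82 in NT 1, 2 and 3 and at -0.07, -0.82 and -0.18 in the IgG arrays. It reached 1.44, 2.35 and 3.52 in 7B12 1, 2 and 3. The groups did not overlap, and the difference was 2.79 ± 0.55 (SE), or 6.91-fold (adjusted p = 0.439, limma). Cxcl11, which binds the same receptor, was 0.29, -0.35 and -0.93 in NT, -0.55, -0.19 and -0.74 in IgG, and 2.56, 1.74 and 3.06 in 7B12. All 3 arrays of 7B12 again lay above every control, by 2.86 ± 0.75 (7.28-fold, adjusted p = 0.613, limma). Cxcl9, known as the member most dependent on interferon-gamma, was read by 2 probe sets whose values correlated at r = 0.62 over the 12 arrays. By 1373544_at it was 1.46, 0.91 and 3.91 in 7B12, against -1.06 to 0.44 in the controls, a difference of 2.29 ± 0.63. By 1382454_at it was 1.52, 0.69 and 3.54, against -3.90 to 0.06, a difference of 2.91 ± 0.90. Both probe sets placed 7B12 above every control array, and they disagreed on the controls: NT 3 was the highest control by the former (0.44) and the lowest by the latter (-3.90).

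Cxcl13, which draws B cells into lymphoid follicles, had the largest difference of the members. It stood at -1.24, -1.19 and -0.26 in NT, at -1.02, -0.51 and 0.71 in IgG, and at 2.41, 3.62 and 4.35 in 7B12. The groups did not overlap, and the difference of 4.05 ± 0.86 (16.5-fold, adjusted p = 0.526, limma) ranked 6 among the 31042 probe sets from the highest. Ccl20, a chemokine for cells bearing Ccr6, ranked 12, yet its spread was the widest of the members. Its values were -0.00, -1.36 and -0.20 in NT, 0.10, -4.82 and 1.00 in IgG, and 1.89, 0.72 and 4.71 in 7B12. The groups overlapped, as 7B12 2 lay below IgG 3, and the lowest value, in IgG 2, pulled the control mean down. The difference was 3.32 ± 1.38 (9.99-fold, adjusted p = 0.928, limma).

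Cxcl1, the neutrophil chemokine, was 0.00, -1.38 and 0.19 in NT, 0.22, -1.81 and -0.67 in IgG, and 1.70, 0.07 and 3.33 in 7B12. The 7B12 2 array lay among the controls, although above both controls numbered 2, and the difference was 2.27 ± 0.74 (4.84-fold, adjusted p = 0.785, limma). Ccl2, the monocyte chemokine, was -1.60, -1.45 and 0.19 in NT, -1.0, -1.29 and 0.15 in IgG, and 0.07, 0.14 and 2.16 in 7B12. Here the controls themselves fell into high and low arrays, those numbered 3 being at the level of 7B12 1 and 7B12 2. The difference was 1.63 ± 0.57 (3.09-fold, adjusted p = 0.823, limma).

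Ccl3 and Ccl4, neighbouring genes of inflammatory macrophage chemokines, gave similar differences. Ccl3 was -0.17, -0.46 and 0.03 in NT, 0.15, -0.59 and 0.04 in IgG, and 1.15, 0.97 and 2.49 in 7B12. The groups did not overlap, and Ccl3 had the smallest residual SD of the members, with a difference of 1.70 ± 0.48 (3.25-fold, adjusted p = 0.639, limma). Ccl4 was 0.10, -0.60 and 0.01 in NT, 0.82, -1.31 and -0.06 in IgG, and 1.27, 0.33 and 2.48 in 7B12, and 7B12 2 lay below IgG 1. Its difference was 1.53 ± 0.60 (2.89-fold, adjusted p = 0.888, limma). Ccl5, a chemokine made by T cells and by activated glia, had the largest adjusted p of the members. It was 0.25, 0.39 and -0.97 in NT, 0.73, -1.12 and -0.75 in IgG, and 2.86, -0.08 and 2.07 in 7B12. The 7B12 2 array was no higher than NT 1, NT 2 or IgG 1, and the difference was 1.86 ± 0.84 (3.64-fold, unadjusted p = 0.0520, adjusted p = 0.965, limma).

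**Figure D2:**
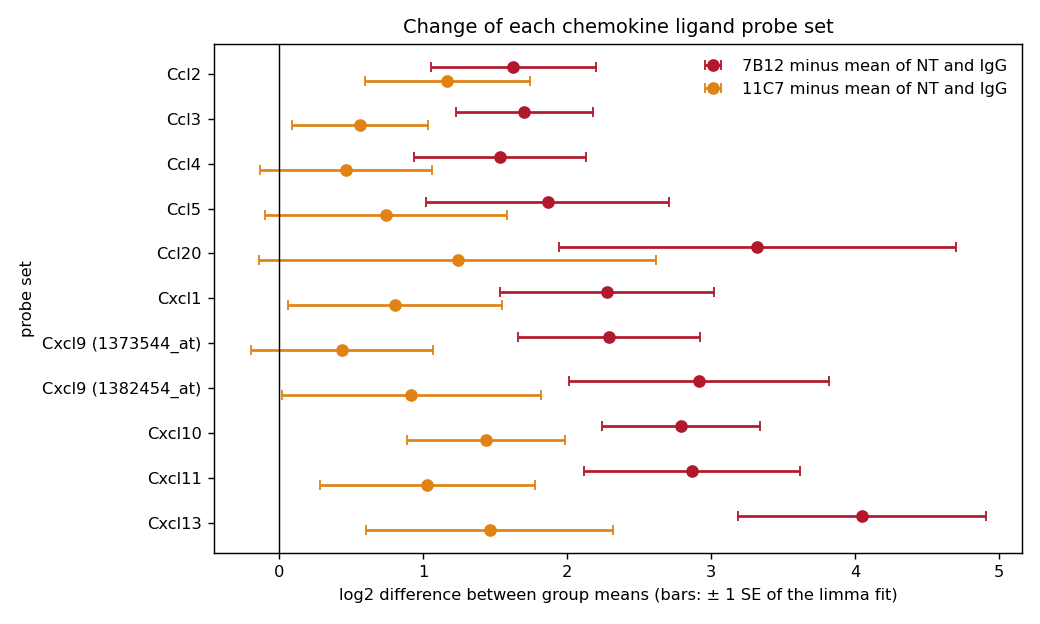
Points give the log2 difference between the group mean and the mean of NT and IgG for each of the 11 probe sets, in red for 7B12 and in orange for 11C7, with bars of 1 SE of the limma fit. Every point is above 0, and in each probe set the 7B12 point lies to the right of the 11C7 point, from 1.53 to 4.05 against 0.44 to 1.46.

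**Figure D3:**
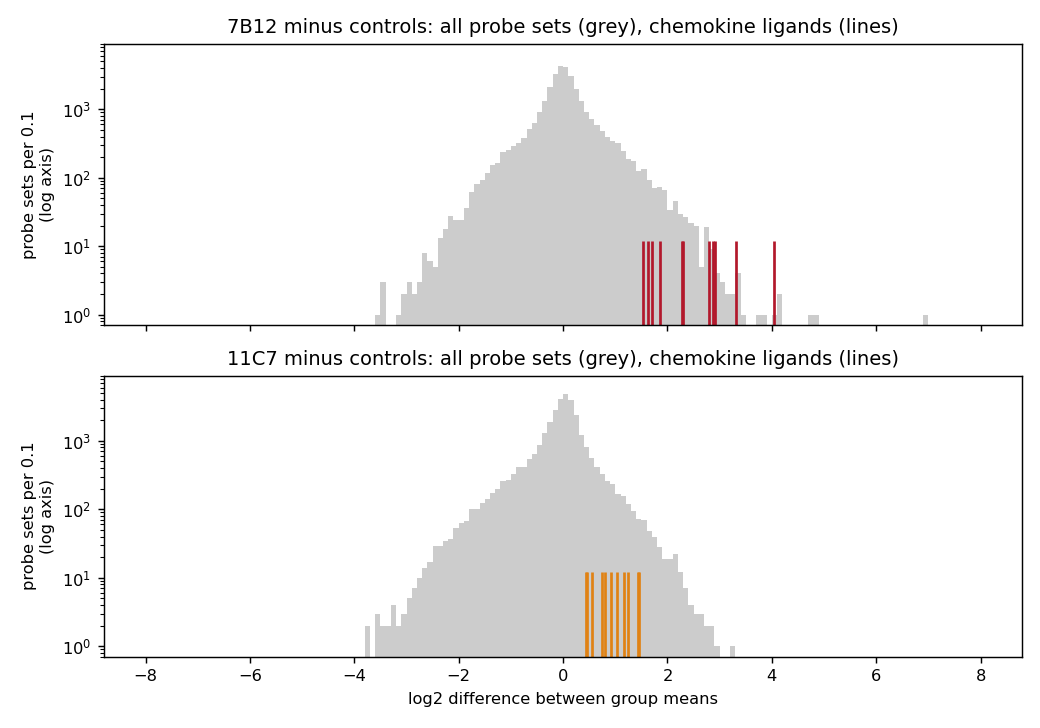
The grey bars count all 31042 probe sets by their log2 difference from the controls (bins of 0.1, log axis), and the lines mark the 11 chemokine ligand probe sets, which the bars include. The lines lie between 1.53 and 4.05 for 7B12 and between 0.44 and 1.46 for 11C7.

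With 11C7, the members stood nearer to the controls, apart from 11C7 1. The median over the 11 probe sets was 0.92, against 0.01 over all probe sets, and all 11 were above 0, as were 51.5% of all. A difference above 1 was found for 5 of 11, against 2.87%. After adjustment 0 of 11 were called. Higher values at an unadjusted p under 0.05 were found for 1 of 11, against 0.989% of all probe sets, and lower values for 0 of 11, against 2.23%. The 1 was Cxcl10, at 1.43 ± 0.55 (unadjusted p = 0.0265, limma). It was also the member whose 3 arrays all lay above the 6 controls, with 2.36, 0.79 and 0.09 in 11C7 1, 2 and 3 (1 of 11, against 0.767%). In 11C7 1, all 11 probe sets exceeded every control array, which 14.1% of all probe sets did. In 11C7 2 this held for 2 of 11 (13.1% of all) and in 11C7 3 for 3 of 11 (11.7%). Cxcl13 shows the pattern, at 3.34 in 11C7 1 and at -1.0 and 0.28 in the other arrays of the group. Cxcl11 was 2.84, 0.33 and -1.32, Ccl20 was 2.57, -0.45 and -1.05, and Ccl5 was 2.47, -0.42 and -0.55. Ccl2 spread less, at 0.60, -0.02 and 0.41, with a difference from the controls of 1.17 ± 0.57 (unadjusted p = 0.0707, limma). Without 11C7 1 the median was 0.13, against 0.01 over all probe sets, and 6 of 11 were above 0 (51.5% of all with that array kept). None had an unadjusted p under 0.05, which 0.776% of all had with a higher value (0 of 31042 probe sets were called, limma). Ccl2 (1.03) and Cxcl10 (0.79) then had the largest differences, while Ccl3 (-0.052), Ccl4 (-0.080), Ccl5 (-0.24) and Cxcl11 (-0.085) were below 0. Cxcl9 was also below 0 by 1373544_at (-0.05 and -0.55 in 11C7 2 and 3, against a control mean of -0.20), although its probe sets averaged gave 0.35.

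Side by side, 11C7 1 and 7B12 1 held the 10 genes at much the same values. With the Cxcl9 probe sets averaged, their absolute difference was 0.53 in the median and 0.93 at most. By the 1382454_at probe set of Cxcl9 alone, 7B12 1 was 1.36 above 11C7 1. In 11C7 2 and 7B12 2 the median was 1.25, and in 11C7 3 and 7B12 3 it was 3.34. Between NT and IgG arrays of the same number it was 0.29, 0.69 and 0.43. The contrast of 7B12 with 11C7 was positive in all 11 probe sets (50.4% of all), with a median of 1.47 against 0.00, and above 1 in 10 of 11 (7.87%). Cxcl13 stood 2.59 ± 0.99 higher in 7B12 (unadjusted p = 0.0268, limma) and Cxcl9 1.86 ± 0.73 by 1373544_at (unadjusted p = 0.0300), which made 2 of 11 against 2.60% of all probe sets, with 0 of 11 called. Lower values at that p numbered 0 of 11, against 1.23%. The 3 arrays of 7B12 lay above the 3 of 11C7 in 1 of 11, against 3.89% of all probe sets, and this was Cxcl9 by 1382454_at (0.69 to 3.54 against -1.01 to 0.60). The smallest difference was Ccl2 at 0.46 ± 0.66. With 11C7 1 left out, 7 of 11 were higher at an unadjusted p under 0.05 in this contrast, against 3.02% of all probe sets, and 0 were called. That array was singled out by these same genes. The count was 0 of 11 without 11C7 2 (2.16% of all), 11C7 3 (2.76%) or 7B12 3 (1.61%). It was 3 of 11 without 7B12 1 (3.39%) and 4 of 11 without 7B12 2 (2.13%).

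Control IgG was also compared with untreated slices. Differences ran from -0.79 ± 0.73 to 1.09 ± 1.04, which were those of the Cxcl9 probe sets 1373544_at and 1382454_at, and 4 of 11 were above 0 (48.7% of all). Cxcl13 differed by 0.62 ± 0.99, Ccl2 by 0.24 ± 0.66 and Cxcl10 by -0.01 ± 0.63. No member had an unadjusted p under 0.05 (0 of 11, against 1.31% of all probe sets for higher values and 1% for lower), and the IgG arrays lay above all NT arrays in 0 of 11 (2.54% of all). The 1382454_at probe set of Cxcl9 was the 1 of 11 with a difference above 1 (5.67% of all). The SEs of these differences ran from 0.55 to 1.59, so a difference of such a size could have been missed.

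Arrays that share a replicate number can be set beside each other as a description. Against the mean of NT and IgG with its number, 7B12 was higher in 3 of 3 arrays for all 11 probe sets. It exceeded both controls of its number in 3 of 3 arrays for 10 of 11, against 8.07% of all probe sets, the exception being Ccl5 through NT 2. Cxcl13 stood 3.54, 4.47 and 4.13 above these controls in 7B12 1, 2 and 3 (4.05 ± 0.47, SD, n = 3), and Ccl2 stood 1.37, 1.51 and 1.99 above them (1.63 ± 0.33, SD, n = 3). These spreads were narrower than those of the group, where Ccl2 had an SD of 1.19 in 7B12 and 0.80 over the controls. Other members varied more, with Ccl5 at 2.37, 0.29 and 2.93, Cxcl10 at 1.59, 2.76 and 4.02 and Cxcl9 (1373544_at) at 1.48, 1.17 and 4.22. For 11C7, each array exceeded both controls of its number in 2 of 11, against 4.50% of all probe sets. These were Cxcl10, at 2.51, 1.19 and 0.60 above the mean of the controls of its number, and Ccl2, at 1.90, 1.35 and 0.24.

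**Figure D4:**
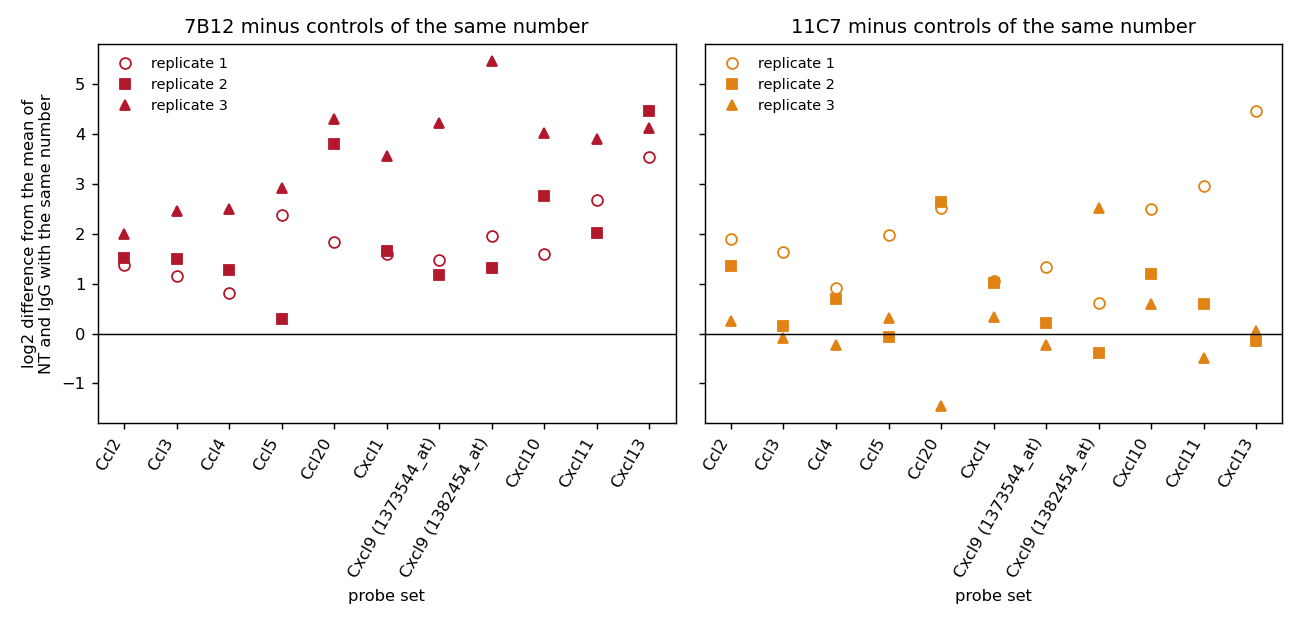
Each point is the log2 value of 1 antibody array minus the mean of NT and IgG with the same replicate number, by probe set, with 7B12 on the left and 11C7 on the right. All 7B12 points lie above 0, from 0.29 for Ccl5 in replicate 2 to 5.47 for Cxcl9 (1382454_at) in replicate 3, and 11C7 points in replicates 2 and 3 lie on both sides of 0.

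Over the 12 arrays the 10 genes varied together. Pearson correlations between pairs of members ran from 0.38 for Ccl2 with Ccl5 to 0.96 for Ccl4 with Cxcl1, with a median of 0.78 over 45 pairs. All pairs share the same arrays and the same scaling, so these are a description. Within the family, Ccl4 followed Cxcl1, Ccl20 (0.94) and Ccl3 (0.93) most closely. Cxcl10 was nearest to Ccl3 (0.91) and Cxcl11 (0.89). Among 14207 other genes, the profile most like the mean of the members was that of Cd14, the co-receptor of Toll-like receptor 4 for endotoxin (r = 0.99 over 12 arrays). Its values were 1.56, 1.26 and 3.42 in 7B12, 2.31, -0.14 and 0.19 in 11C7, and -0.80 to 0.15 in the controls. The next were Vcam1, an endothelial adhesion molecule for leukocytes (0.97), the immunoproteasome subunit Psmb9 (0.97), the actin regulator Vasp (0.97) and Fam43a (0.96).

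The receptors were spread around 0. Of 22 receptor genes listed, 16 were measured by 20 probe sets. Their median difference in 7B12 was -0.07, against 0.00 over all probe sets, and 9 of 20 were above 0 (50.3% of all). At an unadjusted p under 0.05, 1 was higher (3.09% of all) and 2 were lower (2.12%), with 0 called. Cxcr5, the receptor of Cxcl13, was 1.85 ± 0.65 above the controls by 1 probe set (1369911_at) and -0.07 ± 0.43 by the other (1386557_at), so its probe sets disagreed. Cxcr3 stood at 0.46 ± 0.69, Ccr6 at 0.33 ± 0.73, Ccr1 at 0.47 ± 0.31, Ccr2 at -0.14 ± 0.74 and Cxcr2 at -0.16 ± 0.96. Ccr3, a receptor of Ccl5 on eosinophils, stood at -2.00 ± 0.84 and the scavenging receptor Ackr2 at -1.64 ± 0.69 (1369523_at). Of the 20 receptor probe sets, 10 had a 12-array median under 1, those of Ccr2, Ccr6, Cxcr2, Ackr2 and 1369911_at of Cxcr5 among them.

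Other chemokine ligands were mixed. Of 25 listed genes 21 were measured, by 29 probe sets, with a median of 0.04 in 7B12 and 16 of 29 above 0 (50.3% of all). At an unadjusted p under 0.05, 4 were higher (3.09% of all) and 1 was lower (2.12%), with 0 called. Ccl7, a monocyte chemokine whose gene lies next to Ccl2, stood 2.06 ± 0.71 above the controls and 1.39 ± 0.71 in 11C7. The lymphoid chemokine Ccl19 stood at 1.15 ± 0.34 and the membrane-bound Cxcl16 at 1.41 ± 0.45. Cxcl3 was 1.75 ± 0.46 by 1370634_x_at and between -0.31 and 0.54 by its other 4 probe sets. The eosinophil chemokine Ccl11 was lower, at -2.36 ± 0.76. Cxcl12 and Cx3cl1, made constitutively by glia and neurons, stood at -0.08 to 0.04 over 3 probe sets and at 0.20 ± 0.49.

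Genes of the NF-kappaB pathway stood above the controls beside the ligands. Of 17 listed, 15 were measured, by 18 probe sets with a median of 0.87 in 7B12, and 17 of 18 were above 0 (50.3% of all). At an unadjusted p under 0.05, 10 were higher (3.09% of all) and 0 were called. The cytokine gene Il1b stood 3.18 ± 0.63 above the controls and Tlr2, a receptor for bacterial lipoproteins, at 1.75 ± 0.51. Nfkbiz stood at 1.72 ± 0.49 (1378032_at) and Cd14 at 2.38 ± 0.61. In 11C7 the median was 0.35, 18 of 18 were above 0 (51.5% of all) and 0 had an unadjusted p under 0.05. The mean of the list was 0.87 in 11C7 1 and -0.27 and -0.09 in 11C7 2 and 3. The interferon pathway was nearer to 0: 15 of 16 genes were measured by 25 probe sets with a median of 0.17 in 7B12. Above 0 were 19 of 25 (50.3% of all), 2 were higher at an unadjusted p under 0.05 (3.09%) and 0 were called. Irf7, a factor that interferon induces, stood at 2.44 ± 0.55 and Stat2 at 0.64 ± 0.26 (1389571_at), while Irf1 was at 0.05 ± 0.23. The ligand genes Ifng (-0.49 ± 0.87) and Ifnb1 (-0.29 ± 0.94) had negative differences.

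**Figure D5:**
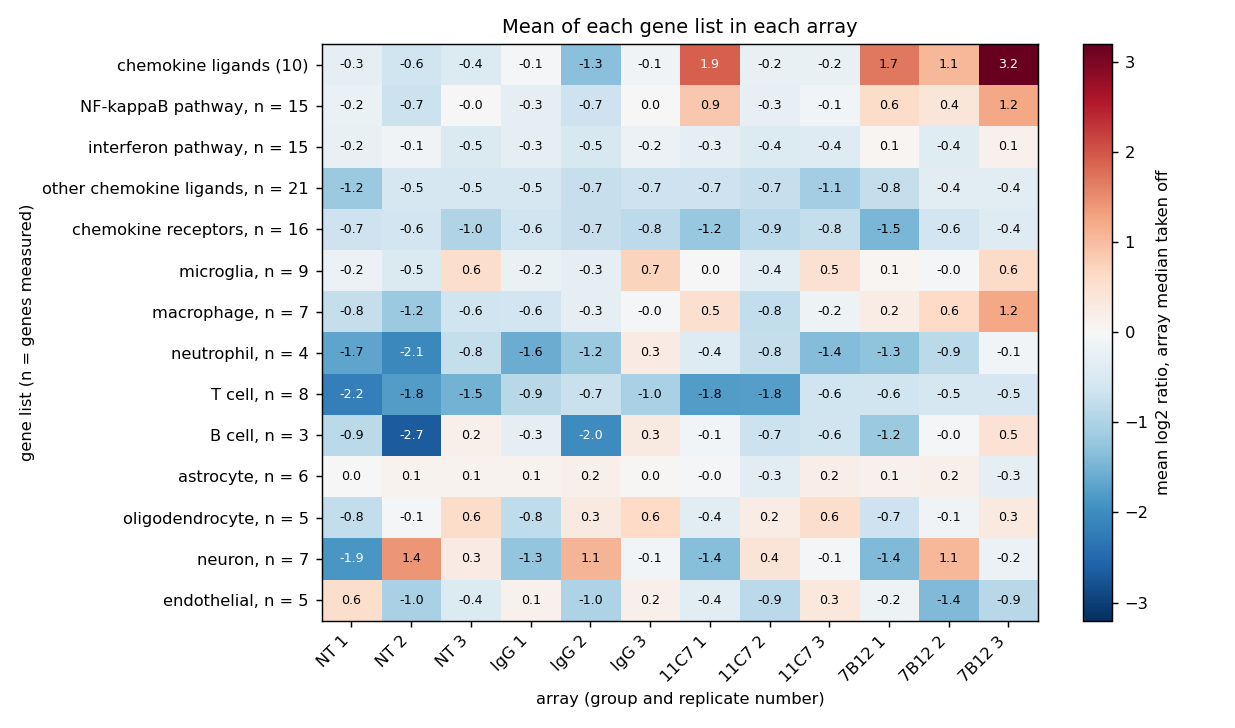
Each cell gives the mean log2 ratio, array median taken off, of the measured genes of a list (rows, n = genes) in 1 array (columns). The chemokine ligands range from 1.07 to 3.19 in 7B12, stand at 1.91 in 11C7 1 and range from -1.34 to -0.07 in the controls, and the macrophage list is the cell type list whose 7B12 arrays all lie above the controls apart from T cell markers.

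Markers of cells that could make or answer these ligands are given beside them. Macrophage markers (7 of 7 genes measured, 8 probe sets) had means of 0.25 to 1.25 in 7B12, 0.50, -0.79 and -0.17 in 11C7 1, 2 and 3, and -1.20 to -0.04 in the controls. Of these, 4 of 8 probe sets were higher in 7B12 at an unadjusted p under 0.05 (3.09% of all). They were those of Lyz2, Ms4a7, Mrc1 and Cd14, which the NF-kappaB list also holds. Lyz2 stood 2.64-fold higher on the linear scale. As log2 differences, Ms4a7 stood at 2.84 ± 0.64, Mrc1 at 2.46 ± 0.61 and Cd163 at -0.053 ± 0.61. Microglial markers (9 of 10 genes, 12 probe sets) had means of -0.05 to 0.61 in 7B12 and -0.46 to 0.71 in the controls, and overlapped. The T cell list (8 of 8 genes, 11 probe sets, of which 9 had a 12-array median under 1) had means of -0.65 to -0.53 in 7B12, -1.78 to -0.63 in 11C7 and -2.20 to -0.70 in the controls, with Cd3d at 1.87 ± 0.44 and Lck at 0.58 ± 0.18. Between IgG and NT its probe sets had a median difference of 0.99. B cell markers (3 of 6 genes) ranged from -1.19 to 0.46 in 7B12 and from -2.67 to 0.29 in the controls, and Cd79b (2.75 ± 0.93) and Ms4a1 (-1.22 ± 1.06) went opposite ways. Neutrophil markers (4 of 6 genes) ranged from -1.29 to -0.08 in 7B12 and from -2.07 to 0.26 in the controls. Astrocyte markers lay between -0.28 and 0.16 in 7B12 and between 0.018 and 0.15 in the controls. Oligodendrocyte, neuron and endothelial lists had median differences of -0.11, -0.034 and -0.53 in 7B12 and no probe set at an unadjusted p under 0.05 (0 called, limma). These group differences average over a split by replicate number. Neuron and oligodendrocyte means were lower in every array numbered 1 than in any other array, and neuron means were highest in those numbered 2. Neuron means were -1.41, 1.07 and -0.18 in 7B12 1, 2 and 3, and -1.27, 1.08 and -0.08 in IgG 1, 2 and 3. The part of any of these cells in the chemokine values was not tested.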

How the data were processed

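Biotin-labelled RNA of 12 samples was hybridised to Affymetrix rat arrays, and per the submitters' processing notes GCOS 1.4 and MAS5 were used. The deposited values are ratios: the authors scaled each array and then each probe set, by the design text to the median of the control replicates. In the values, 76.4% of probe sets had a median of 1 (within 0.0015) over the 12 arrays and 11.2% over the 6 controls, so the reference looks like the 12-array median. A constant divisor leaves log2 differences as they are. Of 31099 probe sets, 57 spike-in controls were left out, and 20826 of the rest carry 1 gene symbol. All 11 member probe sets had a 12-array median of 1.

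In R 4.3.3, limma 3.58.1 took log2 ratios less the array median and estimated 1 mean per group over the 12 arrays, with contrasts and eBayes without a trend, two-sided tests and Benjamini-Hochberg adjustment over 31042 probe sets at 0.05. Arrays have no sequencing depth, and 3 arrays per group limit the precision. Groups and replicate numbers came from sample titles. The fit was run on simulated data with noise drawn separately for each array. That run therefore left out the deviation shared by arrays of the same replicate number.

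The members, lists, contrasts and most alternatives were chosen with earlier results of these data known. Named genes were the 10 members, receptors of the members, at most 4 genes per list by the smallest p in 7B12, and the 5 most like profiles; list genes outside this rule (Ccl7, Cxcl12, Cx3cl1, Irf1, Ifng, Ifnb1, Cd163) were named after their values were seen. The detection calls and the analysis of variance of the design text were not used here.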

Additional observations from a re-analysis of the deposited data

How the results depend on the processing

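No member probe set passed in any of the 4 comparisons under values as deposited, quantile normalization, log2(value + 0.1) or a mean-variance trend. The same held with probe sets of a 12-array median under 1 left out and in a fit of the compared groups alone. It also held against IgG alone for either antibody. Samples with the same replicate number deviated together, at r from 0.09 to 0.42 in 18 pairs, against -0.29 to 0.08 in 36 pairs of other numbers. In 12 of 12 arrays the best correlation was with their own number. The numbers were not taken as a pairing, because r over 0.1 was required in every pair. It held in 17 of 18, and IgG 3 with 11C7 3 reached 0.086, still above the highest pair of other numbers (0.081). The main SEs and p-values thus take no account of this shared deviation, and fits with the number as a block follow. For 7B12 the SE of Ccl2 was 0.34 with the block, against 0.57 without it. That of Cxcl10 was 0.61, against 0.55. With the replicate number as a block, 0 of 11 were called in each comparison, and members at an unadjusted p under 0.05 numbered 11 for 7B12 (5.16% of all probe sets), 2 for 11C7 (2.18%), 0 for IgG against NT (1.78%) and 4 for 7B12 against 11C7 (3.98%). With the block and the compared groups only, Cxcl13 passed in 7B12 (1 of 11, adjusted p = 0.0187, beside 68 of 31042 probe sets or 0.219%, limma), and the unadjusted counts were 3 for 11C7 (1.96% of all), 1 for IgG against NT (2.44%) and 1 for 7B12 against 11C7 (3.67%).

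The unadjusted count for 11C7 was 1 in the main setting (0.989% of all probe sets). It was 2 under quantile normalization (1.4%), 0 with the trend (0.899%) and 2 with the compared groups only (1.04%). That for 7B12 against 11C7 was 2 in the main setting (2.6%), and 0 (1.85%), 1 (2.41%) and 0 (2.47%) under these alternatives. Leaving out each array in turn, with or without the block, the count called ran from 0 to 1 for 7B12 and for 7B12 against 11C7 (each time Cxcl13, with the block and without 11C7 1, at an adjusted p of 0.00709 for 7B12 beside 99 probe sets, and beside 27 for 7B12 against 11C7, limma) and was 0 for 11C7 and IgG against NT. The 11C7 1 array was singled out by these same genes. Unadjusted counts for 7B12 ran from 5 (without 7B12 3, 1.65% of all probe sets) to 11 (2.9% to 5.59%). For 11C7 they ran from 0 (0.776% to 2.11%) to 5 (without 11C7 3, with the block, 5.03%). For IgG against NT they were 0 (1.13% to 2.42%) or 1 (without 11C7 1, with the block, 1.83%). For 7B12 against 11C7 they ran from 0 (1.61% to 4%) to 7 (without 11C7 1, 3.02%, or 5.73% with the block). The count of members with 3 arrays above all controls was the same under both other scalings, 6 for 7B12 and 1 for 11C7. In the main setting, 1.99% and 0.767% of all probe sets met this.

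Differences in 7B12 kept their sign in all 240 values with an array left out and all 100 of the other alternatives. In 11C7, 6 of 240 reversed, each without 11C7 1, and 0 of 100. With an array left out and no block, 11C7 differences ran from -0.052 to 0.94 for Ccl3, -0.080 to 0.74 for Ccl4, -0.24 to 1.27 for Ccl5 and -0.085 to 2.00 for Cxcl11. With the block they ran from -0.064 to 1.01 for Ccl3 and -0.13 to 2.33 for Cxcl13. The cause was not tested.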
